A study of Mus musculus with 12 samples.

Results

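The nuclear genes for the respiratory chain and the ATP synthase of mitochondria were examined in mouse embryonic fibroblasts (MEFs), cultured connective tissue cells. Members were the protein-coding genes whose symbols begin with Ndufa, Ndufb, Ndufc, Ndufs, Ndufv, Uqcr, Cox4 to Cox8 or Atp5, with Sdha, Sdhb, Sdhc and Sdhd. They numbered 94 of the 54532 genes in the table: 38 complex I subunit genes, 8 complex I assembly factor genes (Ndufaf), 4 genes of complex II, 8 of complex III, 18 of complex IV and 18 of complex V. The rule uses symbols and gene biotype and no measured value, though it was set with earlier results of these data known.

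RNA was sequenced from wild-type MEFs and from CHIP-KO MEFs, which lack CHIP. Its gene is Stub1, and CHIP is a co-chaperone that attaches ubiquitin to proteins held by Hsp70 and Hsp90 chaperones. Cells of each genotype were left without treatment or were held for 1 h at 43 °C, and each of the 4 groups had 3 libraries. The labels give the cells only as MEF, with no strain, embryo age or passage, and they do not say how the knockout was made, whether it is 1 clone, or whether replicates were separate cultures. The p-values below therefore measure the spread between libraries, which may be technical.

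The respiratory chain passes electrons to oxygen through complexes I to IV and pumps protons across the inner mitochondrial membrane, and complex V, the ATP synthase, uses that gradient to make ATP. Most of its subunits are encoded in the nucleus, made in the cytosol and imported, while a small set of core subunits of complexes I, III, IV and V is encoded by mitochondrial DNA, so that both genomes supply the same complexes. Fibroblasts in culture make ATP by glycolysis as well as by respiration. The factors NRF1, GABP (an ETS factor) and YY1 are known to act at promoters of many of these nuclear genes.

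Promoters were compared with those binding motifs because the genes are often described as sharing them. RefSeq promoters of build GRCm38.p6, from 250 bases before to 50 bases after each gene start, were matched to 75 of the 94 members. The NRF1 core GCGCATGCG, on either strand, was in the promoters of 10 of 75 members (13.3%) and of 527 of 27025 genes with a promoter in the table (1.95%). The ETS motif CCGGAAG was in 18 members (24%) against 9.93% of all genes, and the YY1 motif AAGATGGCG in 8 members (10.7%) against 1.64%. GAANNTTC is a short part of the heat shock element, the site of heat shock factors, and is called by that name below. It was in 4 members (5.33%), Atp5b, Atp5c1, Cox5a and Sdha, against 9.04% of all genes. The 27025 genes were not matched to the members in biotype or level, so the shares compare unlike sets. A match is a description of letters, not evidence of binding, and the motifs may overlap.

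Promoter stretches of 120 bases are shown for the 6 members, among those singled out below by the size of their change, in which such a stretch held one of these motifs, so that the letters can be read beside the values of the genes. Each runs 5′ to 3′ on the gene's own strand and lies outside the gene span of the table. Capitals mark the NRF1 core in Ndufaf4, which reads the same on both strands over 10 bases and begins 113 bases before the RefSeq start. In the others they mark the ETS motif, beginning 18 bases before the start in Ndufaf1, 46 bases before it in Sdhd, 66 in Uqcr11, 10 in Uqcrh and 102 in Atp5e.
Ndufaf4 (chr4:24897963-24898082, plus strand): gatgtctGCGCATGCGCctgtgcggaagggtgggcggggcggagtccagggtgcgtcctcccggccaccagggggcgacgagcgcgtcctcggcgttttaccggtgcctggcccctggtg
Ndufaf1 (chr2:119662835-119662954, minus strand): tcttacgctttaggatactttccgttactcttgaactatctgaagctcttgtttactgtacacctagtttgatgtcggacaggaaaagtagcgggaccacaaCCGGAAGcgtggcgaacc
Sdhd (chr9:50603850-50603969, minus strand): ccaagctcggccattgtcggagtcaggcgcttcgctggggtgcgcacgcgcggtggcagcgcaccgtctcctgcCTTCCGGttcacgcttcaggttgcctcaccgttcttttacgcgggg
Uqcr11 (chr10:80406831-80406950, minus strand): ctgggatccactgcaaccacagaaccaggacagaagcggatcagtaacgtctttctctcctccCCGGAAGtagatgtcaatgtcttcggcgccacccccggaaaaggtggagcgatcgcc
Uqcrh (chr4:116075072-116075191, minus strand): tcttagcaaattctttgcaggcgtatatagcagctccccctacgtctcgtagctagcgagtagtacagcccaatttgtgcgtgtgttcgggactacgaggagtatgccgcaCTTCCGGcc
Atp5e (chr2:174464106-174464225, minus strand): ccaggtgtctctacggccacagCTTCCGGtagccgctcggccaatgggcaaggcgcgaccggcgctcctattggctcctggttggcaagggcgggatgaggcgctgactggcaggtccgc

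Among the members that were lower in unheated CHIP-KO cells, 10 of 40 with a promoter held the ETS motif, 6 the NRF1 core, 3 the YY1 motif and 4 the heat shock element. Among the 31 other tested members with a promoter, 8 held the ETS motif, 4 the NRF1 core, 5 the YY1 motif and 0 the heat shock element. These counts are small and were not tested.

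Values are FPKM (fragments per kilobase of gene, scaled to the fragments of the library) as deposited, and changes are differences of log2(FPKM + 1) from limma, which understate the change of genes with low values. A gene was tested where its FPKM was at least 1 in at least 3 of the 12 libraries, which 13023 genes and 87 members passed: 37 complex I subunits, all 8 assembly factors, all of complexes II and III, 13 of complex IV and 17 of complex V. Rose, fell, higher and lower are used for genes with a Benjamini-Hochberg adjusted p under 0.05 over the 13023 genes. Libraries held 15591924 to 26954112 fragments, and Stub1 stood at 53.8 to 64.1 FPKM in the wild-type libraries and at 0.722 to 1.17 in the CHIP-KO libraries. Of the 6 fibroblast markers, Col1a1, Col1a2, Col3a1, Pdgfrb and Vim were present in all 4 groups, while Thy1 passed the filter through the CHIP-KO libraries alone (group means 8.28 and 8.73 FPKM, against 0.0052 and 0.026 in wild type). No epithelial, endothelial or muscle marker passed. Replicate 1 of both wild-type groups stood apart from its replicates (chi-square per degree of freedom 17.6 to 26.7 in pairs with it, 3.49 and 5.09 in the other wild-type pairs), so results are also given without both of these libraries. Replicate 1 of heated CHIP-KO cells also stood apart, by less (10.4 and 16.6 against 3.40). In unheated wild-type replicate 1 several short genes were low, such as Cox8a at 216 FPKM against 427 and 458.

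The level of the members spanned a wide range. By mean FPKM over the 12 libraries the top 3 were Cox6a1 at 420.3, Cox8a at 413 and the ATP synthase beta subunit gene Atp5b at 402, and the median of the 87 tested members was 43.1. The order of these 3 depended on the group, with Atp5b first in unheated wild-type cells (528) and last of them in heated wild-type cells (361). By complex the median level was 91.1 in complex IV, 70.3 in III, 60.8 in V, 47.4 in II, 39.1 in the complex I subunits and 5.92 in the assembly factors. The highest assembly factor, Ndufaf8, had a mean of 19.4, and Ndufaf4 had the lowest at 3.19. These levels depend on the gene length used: Atp5l (8.87 FPKM) was divided by a gene length of 6443 bases where its main GENCODE transcript has 544, and Ndufb2 (2.19 FPKM) by 5628 where it has 2413. The length cancels in a ratio between groups, apart from the weight it gives to the added 1 FPKM.

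The levels of complex IV subunits that exist as tissue isoforms lay almost wholly in the widely expressed form. Cox4i1 had 186 to 244 FPKM over the 12 libraries and its paralog Cox4i2, known from lung, 0 to 0.443. Cox6a1 had 363 to 507 FPKM and the heart and muscle form Cox6a2 0.0804 to 1.41. Cox7a2 had 58.5 to 117 FPKM and the heart and muscle form Cox7a1 0.485 to 3.002. Cox6b1 had 129 to 174 FPKM and the testis form Cox6b2 at most 0.701. Cox7b2, Cox8c and a second Atp5o entry (ENSMUSG00000116933) were listed at 0 in every library, where 0 fragments allow up to 3.

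Some isoforms had more fragments in heated than in unheated wild-type libraries, at levels too low for the test. Cox8b, the muscle form of subunit 8, had 0 fragments in all 6 unheated libraries, 16, 3 and 1 in heated wild-type cells and 8, 4 and 1 in heated CHIP-KO cells. Ndufa4l2, a hypoxia-induced paralog of Ndufa4, had 3, 3 and 6 fragments in unheated and 36, 12 and 13 in heated wild-type cells, and 7 to 8 against 11 to 13 in CHIP-KO cells. Cox4i2 had 0 in each unheated and 4 to 6 in the heated wild-type libraries, and Cox6b2 0 to 2 and 4 to 15, while in CHIP-KO cells the unheated and heated libraries of both overlapped. The span of Ndufa4l2 overlaps Shmt2 (94.6 FPKM) on the opposite strand, and the sources used here do not say whether counting used strand. Ndufa4 itself, which carries a complex I name and is now placed in complex IV, had 86.8 to 109 FPKM and passed the threshold in none of the 5 comparisons. The 3 genes for the c ring of the ATP synthase, whose mature products are identical, had mean levels of 98.9 (Atp5g3), 96.9 (Atp5g2) and 13.5 FPKM (Atp5g1). The ranges of Atp5g2 (55.8 to 137) and Atp5g3 (83.2 to 139) overlapped.

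**Figure D1:**
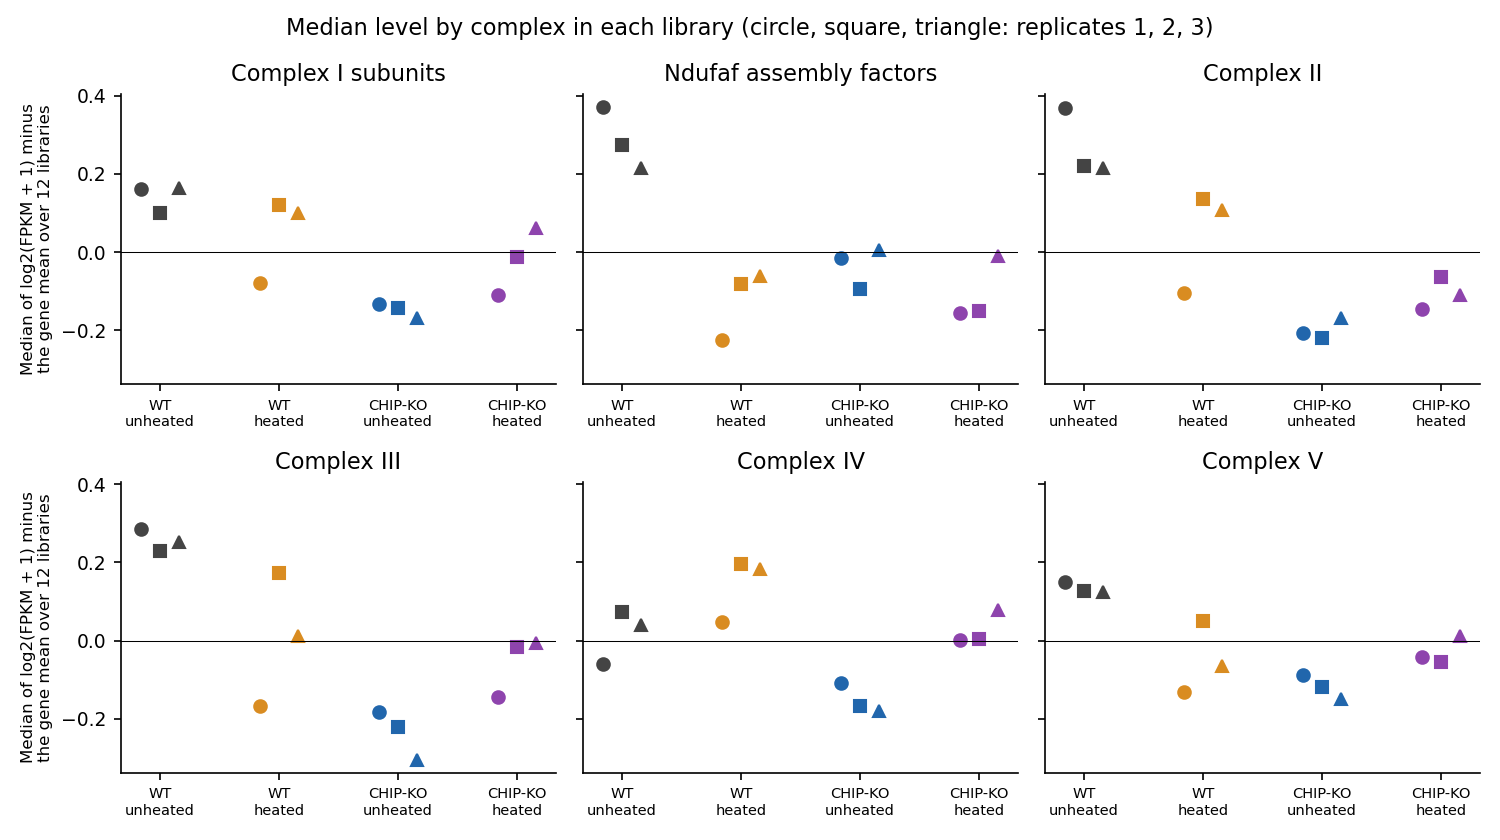
Median over the tested members of each complex of log2(FPKM + 1) minus the gene's mean over the 12 libraries (vertical axis), for each library of the 4 groups. In each panel every unheated wild-type library lies above every unheated CHIP-KO library, with 0.229 to 0.286 against -0.305 to -0.182 in complex III.

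Without heat, respiratory chain genes were lower in CHIP-KO than in wild-type cells. Of the 87 tested members 53 were lower and 2 higher, where 24.5% of all tested genes were lower and 23.9% higher, and the median change was -0.28 against -0.01 over all genes. All 8 tested complex III genes and all 4 complex II genes were lower, as were 22 of 37 complex I subunits, 5 of 8 assembly factors, 9 of 17 complex V genes and 5 of 13 complex IV genes. The summed FPKM of the members was 6173 to 6311 in the unheated wild-type libraries and 4939 to 5125 in the unheated CHIP-KO libraries. These sums did not overlap. The count of lower members was 61 without both wild-type replicates 1 and ranged from 40 to 62 over all the alternatives run. With 1 library left out, complex III had 6 to 8 lower genes and complex II 2 to 4.

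Complex III, which passes electrons from ubiquinol to cytochrome c, had the largest median change, -0.50. Uqcrfs1 (ENSMUSG00000038462, chromosome 13, 30540308 to 30545362), the Rieske iron-sulphur protein, had 149.8, 94.3 and 97.8 FPKM in wild-type and 65.2, 61.6 and 62.1 in CHIP-KO libraries. All 3 wild-type values were above all 3 CHIP-KO values, with replicate 1 of the wild type far above the other two. The log2 change was -0.81 ± 0.15 (SE; 1.76-fold lower, adjusted p = 0.000936), and -0.60 without both wild-type replicates 1. Uqcrb, a small subunit near the ubiquinone site, went from 103.9, 75.3 and 80.4 to 54.0, 56.3 and 47.4 FPKM. Its change was -0.70 ± 0.13 (adjusted p = 0.000951). The other 6 genes were lower by 0.23 to 0.62 on the log2 scale, among them both core protein genes, Uqcrc1 and Uqcrc2.

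In complex I, Ndufs6, an accessory subunit with a zinc site, had the largest difference of the subunits. It had 30.5, 40.0 and 40.0 FPKM in wild-type and 21.5, 22.8 and 19.6 in CHIP-KO libraries (-0.76 ± 0.13, adjusted p = 0.000788), and the groups did not overlap. The table also lists a copy named Ndufs6b, at a mean of 1.54 FPKM, and the opposite strand holds Mrpl36 (16.7 FPKM), so the counts of Ndufs6 are uncertain to that extent. The lower subunits included Ndufs1, Ndufs8 and Ndufv1 of the catalytic core, which carry iron-sulphur clusters or flavin, and the lower subunits besides Ndufs6 had changes of -0.61 to -0.19. No complex I subunit was higher. The members with no call included Ndufa1 (0.25) and Ndufa7 (0.21), the only positive values above 0.2. That of Ndufa1 was -0.11 without wild-type unheated replicate 1. Among the assembly factors Ndufaf4 had the largest change, -0.56 ± 0.14 (adjusted p = 0.0064), from 6.54, 4.35 and 3.96 to 3.05, 2.55 and 3.37 FPKM, and -0.37 without both wild-type replicates 1.

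Complex II, succinate dehydrogenase, has no mitochondrially encoded subunit and also works in the TCA cycle. Sdhb, its iron-sulphur subunit, had 51.0, 41.3 and 41.1 FPKM in wild-type and 27.2, 29.3 and 27.6 in CHIP-KO libraries (-0.64 ± 0.09, adjusted p = 0.000135). The flavoprotein gene Sdha changed by -0.42 and the membrane anchors Sdhc and Sdhd by -0.38 and -0.22. For all 4 genes the wild-type and CHIP-KO libraries did not overlap.

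In complex V, Atp5k and Atp5mpl, small membrane subunits, and the catalytic Atp5b gene had changes of -0.69 to -0.68. Atp5k had 60.1, 77.1 and 88.5 FPKM against 54.6, 47.2 and 37.1 (-0.69 ± 0.19, adjusted p = 0.0119), and lost its call without CHIP-KO unheated replicate 3 (adjusted p = 0.0537). Atp5mpl had 64.2, 40.7 and 45.4 FPKM against 33.8, 29.9 and 27.2 (-0.69 ± 0.16, adjusted p = 0.00414). Atp5b had 589, 506 and 488 FPKM against 335, 324 and 324, a change of -0.68. Atp5e, the epsilon subunit of the central stalk, went the other way. It had 29.4, 27.4 and 25.7 FPKM in wild-type and 39.9, 39.9 and 36.9 in CHIP-KO libraries, 1.40-fold higher (0.49 ± 0.08, adjusted p = 0.000578).

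Complex IV, cytochrome c oxidase, had the smallest median change, -0.15. Cox5b, a zinc-binding subunit, was lower (-0.49 ± 0.17, adjusted p = 0.0338), but its groups overlapped, with 46.3, 73.4 and 77.4 FPKM against 47.1, 44.4 and 45.1. It lost its call under 10 of 27 alternatives, with adjusted p up to 0.170, and its change was -0.72 without both wild-type replicates 1. Cox7a2l, which joins complexes III and IV in supercomplexes and is not a catalytic subunit, was the other higher member, from 88.6, 85.0 and 83.6 to 122, 116 and 122 FPKM (0.48 ± 0.06, adjusted p = 5.7e-05). The other lower complex IV genes were Cox5a, Cox6a1, Cox6c and Cox7c.

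**Figure D2:**
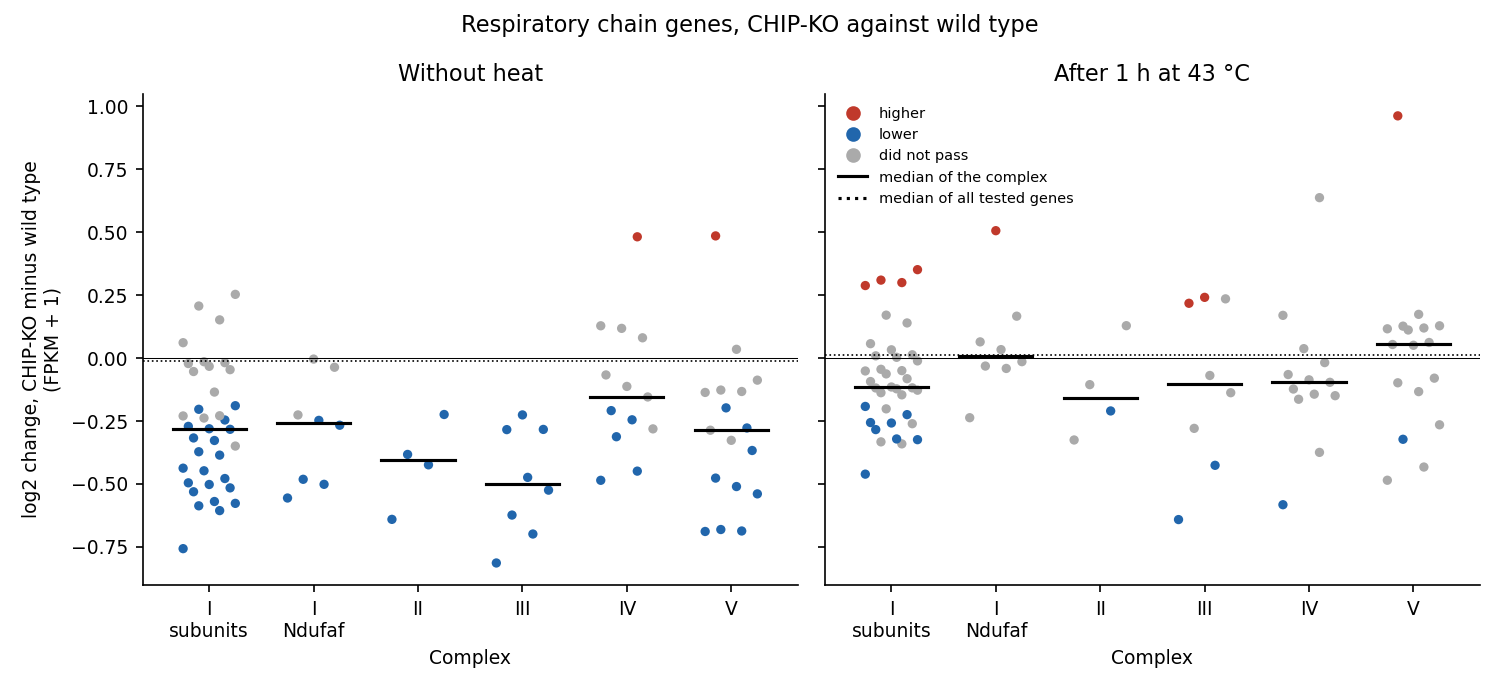
Log2 change of each tested member, CHIP-KO minus wild type (vertical axis, log2(FPKM + 1)), by complex, without heat (left) and after heat (right). Points are genes coloured by call, bars the medians of each complex and the dotted line the median of all tested genes. Without heat 53 members are lower and 2 higher, and after heat 13 are lower and 8 higher.

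Other measures moved with genotype in the same libraries. The summed level of the fibroblast markers was 1435 to 1856 FPKM in unheated wild-type and 2894 to 3058 in unheated CHIP-KO libraries. Most of that difference lay in Col1a1 (group means 903 and 1801 FPKM) and Col1a2 (35.6 and 517). Vim alone of that list had a lower mean in CHIP-KO cells (599 and 492). The neural markers Tubb3 and Sox2 brought their list from 6.31 to 8.36 to a range of 18.5 to 21.2, while Rbfox3 and Snap25 of it were at 0. The part of these differences in the result was not tested. Genes on chromosomes 1, 4, 10, 13, 15 and 16 were shifted downward in CHIP-KO cells. The median change of the other tested genes of each was -0.22 to -0.11, against -0.01 to 0.10 on the other 14 chromosomes. Of the 31 members on those 6 chromosomes 26 were lower, with a median of -0.49, and of the 56 members elsewhere 27 were lower and 2 higher, with a median of -0.22. After the median of each chromosome was removed from its genes, 52 members were lower, 22 of 31 and 30 of 56. Uqcrfs1, Ndufs6 and Uqcrb all lie on chromosome 13. Members were also short, with a median gene length of 1701 bases against 4406 for tested protein-coding genes. In the shortest of 10 equal length classes of the other genes 29.3% were lower, with a median change of -0.09. With the trend of each library on gene length removed, 47 members were lower.

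**Figure D3:**
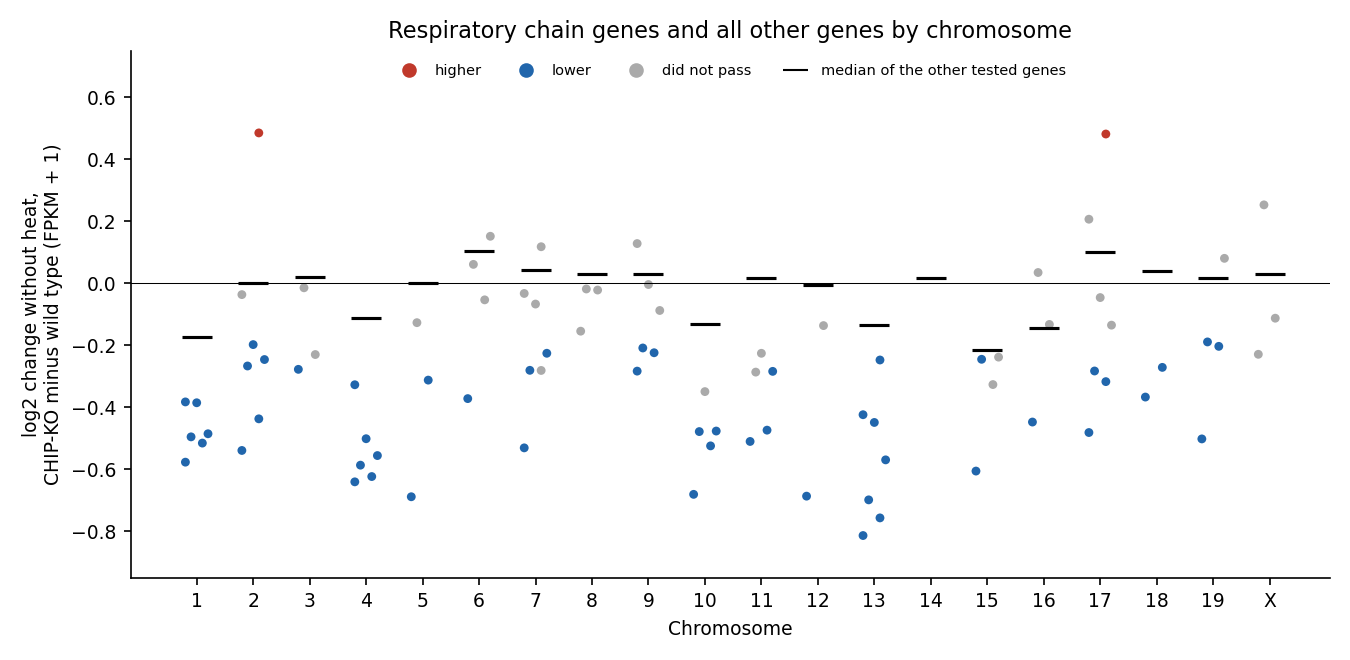
Log2 change without heat, CHIP-KO minus wild type (vertical axis), of each tested member by chromosome (horizontal axis), with the median of all other tested genes of that chromosome as a bar. On chromosomes 1, 4, 10, 13, 15 and 16 the bars lie between -0.22 and -0.11, and 26 of 31 members are lower there. Members below the bars of the other chromosomes are also seen.

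With heat, members of wild-type cells changed in both directions. Of 87 members 30 fell and 9 rose, while 30.5% of all tested genes fell and 28.1% rose, so the share that fell (34.5%) was near that of all genes and the share that rose (10.3%) lay below it. The median change was -0.14 against -0.02 over all genes, and it was -0.06 without wild-type heated replicate 1 and -0.04 without both wild-type replicates 1. The number that rose was 17 without both of these libraries and 5 without wild-type heated replicate 2. By complex, 6 of 8 assembly factors, 7 of 17 complex V, 4 of 8 complex III, 2 of 4 complex II and 10 of 37 complex I genes fell. Of 13 complex IV genes 1 fell and 4 rose. The share of complex IV that rose (30.8%) and that of the complex I subunits that fell (27%) were near those of all genes. Scaling every library to an equal FPKM sum shifted all genes by -0.21 in this comparison, and 58 members then fell and 3 rose. Summed mesothelial markers, almost all Msln, moved from 29.8 to 30.5 FPKM without heat to 5.397 to 6.05 with it, and macrophage markers, nearly all Cd68, from 1.86 to 2.98 to a range of 12.3 to 15.4. Their part in the result was not tested.

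The largest fall in wild-type cells was that of the assembly factor gene Ndufaf4, from 6.54, 4.35 and 3.96 to 2.12, 2.59 and 2.40 FPKM. All heated values lay below all unheated values (-0.80 ± 0.14, adjusted p = 0.000501; -0.56 without both replicates 1). Uqcrfs1 fell to 64.6, 81.7 and 68.5 FPKM (-0.64 ± 0.15, adjusted p = 0.00336; -0.36 without both replicates 1). Atp5g1 fell from 17.2, 18.4 and 18.5 to 10.6, 11.5 and 11.9 FPKM (-0.63 ± 0.05, adjusted p = 2.9e-06). Its groups were tight and well apart, and of its paralogs Atp5g3 also fell (-0.48) while Atp5g2 had a change of 0.37 that did not pass and was -0.00 without wild-type unheated replicate 1. Uqcrc1 fell from 55.6, 49.8 and 49.1 to 30.8, 37.2 and 36.1 FPKM (-0.56 ± 0.07, adjusted p = 6.69e-05). Atp5b fell to 324, 389 and 370 FPKM (-0.55 ± 0.08, adjusted p = 0.000205), and the membrane anchor gene Sdhd fell from 83.8, 79.95 and 82.5 to 55.4, 70.9 and 63.3 (-0.38 ± 0.07, adjusted p = 0.00114). In these 6 genes the heated and unheated libraries did not overlap.

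The rises in wild-type cells were led by Cox7a2l, which went from 88.6, 85.0 and 83.6 to 123, 140.2 and 139.8 FPKM, 1.56-fold (0.64 ± 0.06, adjusted p = 6.02e-06). The unheated CHIP-KO libraries, at 116 to 122 FPKM, stood nearly at this heated level. Cox6c rose from 54.0, 47.3 and 50.2 to 60.3, 76.1 and 69.5 FPKM (0.43 ± 0.09, adjusted p = 0.0012). Its gene overlaps Vps13b (4.90 FPKM) on the opposite strand, and a copy named Cox6c2 is listed at 1.74 FPKM. Ndufb2, a low gene with 147 to 379 fragments per library, rose from 1.66, 1.72 and 1.79 to 3.28, 2.34 and 2.62 FPKM (0.45 ± 0.11, adjusted p = 0.00379). Ndufa7 rose from 43.8, 46.9 and 44.6 to 50.8, 66.3 and 60.7 FPKM (0.38 ± 0.08, adjusted p = 0.00202), and lost its call at an equal FPKM sum (0.15, adjusted p = 0.0827). Cox7a2 rose by 0.41 ± 0.15 (adjusted p = 0.0329), from 58.5, 88.7 and 93.2 FPKM to 94.5 to 117 with heat. Part of the size of this rise came from unheated replicate 1. Without that library alone the change was 0.20 and lost its call (adjusted p = 0.0695). Without both replicates 1 it was 0.27 and kept the call (adjusted p = 0.0108). The adjusted p of Cox7a2 reached 0.328 over the alternatives.

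In the main fit heat changed few members of CHIP-KO cells beyond the threshold. Of 87 members 7 rose and 1 fell, where 8.65% of all tested genes rose and 11.4% fell, and the median change was 0.10 against 0.00 over all genes. The rises were small and not stable. Leaving out 1 library gave 0 to 14. With library weights there were 40, where 2926 of 13023 tested genes rose. More members than in the main fit also rose without both wild-type replicates 1 and with these groups alone, as given in the section on processing. Wild-type libraries enter this comparison only through the spread shared by the fit and the gene filter. There were 0 without CHIP-KO unheated replicate 2 or heated replicate 3, and leaving out any of CHIP-KO unheated replicates 1 and 3, CHIP-KO heated replicate 2 or wild-type unheated replicate 2 gave 1 to 4. Leaving out replicate 1 of unheated or of heated wild-type cells gave 14 and 12, where 1388 of 12963 and 1445 of 12805 tested genes rose. At an equal FPKM sum, which shifted all genes by -0.30, 46 members fell and 1 rose, and the median was -0.23. The sign of the median thus differed between the deposited scaling and this one.

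The one fall was Ndufaf1, a complex I assembly factor, from 15.4, 14.4 and 14.3 to 9.76, 9.22 and 12.3 FPKM (-0.47 ± 0.09, adjusted p = 0.00592). Its groups did not overlap, it fell under every alternative run, and in wild-type cells it fell by 0.50 on the log2 scale. Cox7a1 rose from 0.972, 0.485 and 0.886 to 1.90, 1.95 and 2.02 FPKM (0.74 ± 0.19, adjusted p = 0.0187), on 7 to 26 fragments per library. It lost its call under 6 of 27 alternatives. Ndufb6, Atp5e, Atp5b and Atp5d rose by 0.23 to 0.27 with adjusted p of 0.0155 to 0.0479, and had changes of -0.10 to -0.06 at an equal FPKM sum. Atp5b had 335, 324 and 324 FPKM without and 382, 393 and 404 with heat. Cox7a2l rose again, by 0.19.

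**Figure D4:**
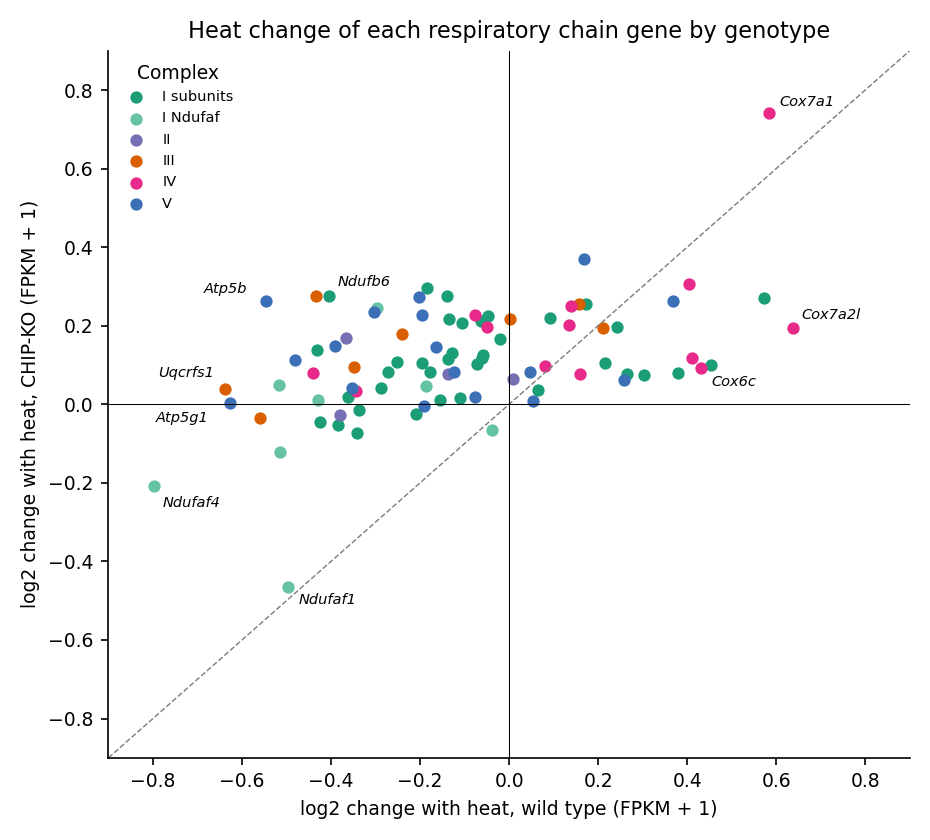
Log2 change with heat of each tested member in wild-type cells (horizontal axis) against that in CHIP-KO cells (vertical axis), coloured by complex, with the line of equality dashed. Wild-type changes run from -0.80 (Ndufaf4) to 0.64 (Cox7a2l), and CHIP-KO changes, apart from Ndufaf1 at -0.47 and Cox7a1 at 0.74, from -0.21 to 0.37.

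The heat changes of the genotypes were compared by the interaction, the change in CHIP-KO minus that in wild type. For 27 members it was higher and for 2 lower, where 17.9% of all tested genes were higher and 17.3% lower, and the median was 0.25 against 0.00. The 27 included 8 complex I subunits, 7 complex V genes, 4 assembly factors, 4 complex III, 2 complex II and 2 complex IV genes. Over the alternatives the count was 19 to 45. The unheated wild-type libraries enter this comparison, heat in wild type and genotype without heat alike, so the 3 results share them.

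Atp5b had the largest difference, 0.81 ± 0.12 (adjusted p = 0.000371), with -0.55 in wild type and 0.26 in CHIP-KO cells. Atp5g1 fell in wild type (-0.63) and had a change of 0.00 in CHIP-KO cells, where it stood at 12.6, 12.2 and 12.3 FPKM without and 12.9, 11.97 and 12.3 with heat, a difference of 0.63 ± 0.07 (adjusted p = 9.85e-05). Uqcrq, a small complex III subunit, fell from 54.2, 72.3 and 71.9 to 42.3, 54.2 and 49.1 FPKM in wild type and had 48.9, 49.6 and 42.6 without and 52.3, 58.3 and 60.7 with heat in CHIP-KO cells. Its difference was 0.71 ± 0.17 (adjusted p = 0.00857). Ndufb6 fell in wild-type cells from 40.7, 49.4 and 43.9 to 35.0, 30.1 and 35.4 FPKM, and the difference was 0.68 ± 0.12 (adjusted p = 0.00117). Sdhb had a difference of 0.53 ± 0.13 (adjusted p = 0.00706). Those of Uqcrfs1 (0.68 ± 0.21, adjusted p = 0.0281) and Ndufaf4 (0.59 ± 0.20, adjusted p = 0.037) lost their call under 8 and 12 alternatives, and without both wild-type replicates 1 were 0.39 (adjusted p = 0.0103) and 0.35 (adjusted p = 0.0509).

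The 2 lower members were Cox7a2l (-0.44 ± 0.08, adjusted p = 0.00205) and Cox6c (-0.34 ± 0.12, adjusted p = 0.0495). Cox7a2l rose in both genotypes, from a higher unheated level in CHIP-KO cells. Cox6c had 45.1, 41.6 and 40.6 FPKM without and 45.4, 42.9 and 47.8 with heat in CHIP-KO cells, and its difference lost the call under 14 of 27 alternatives.

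**Figure D5:**
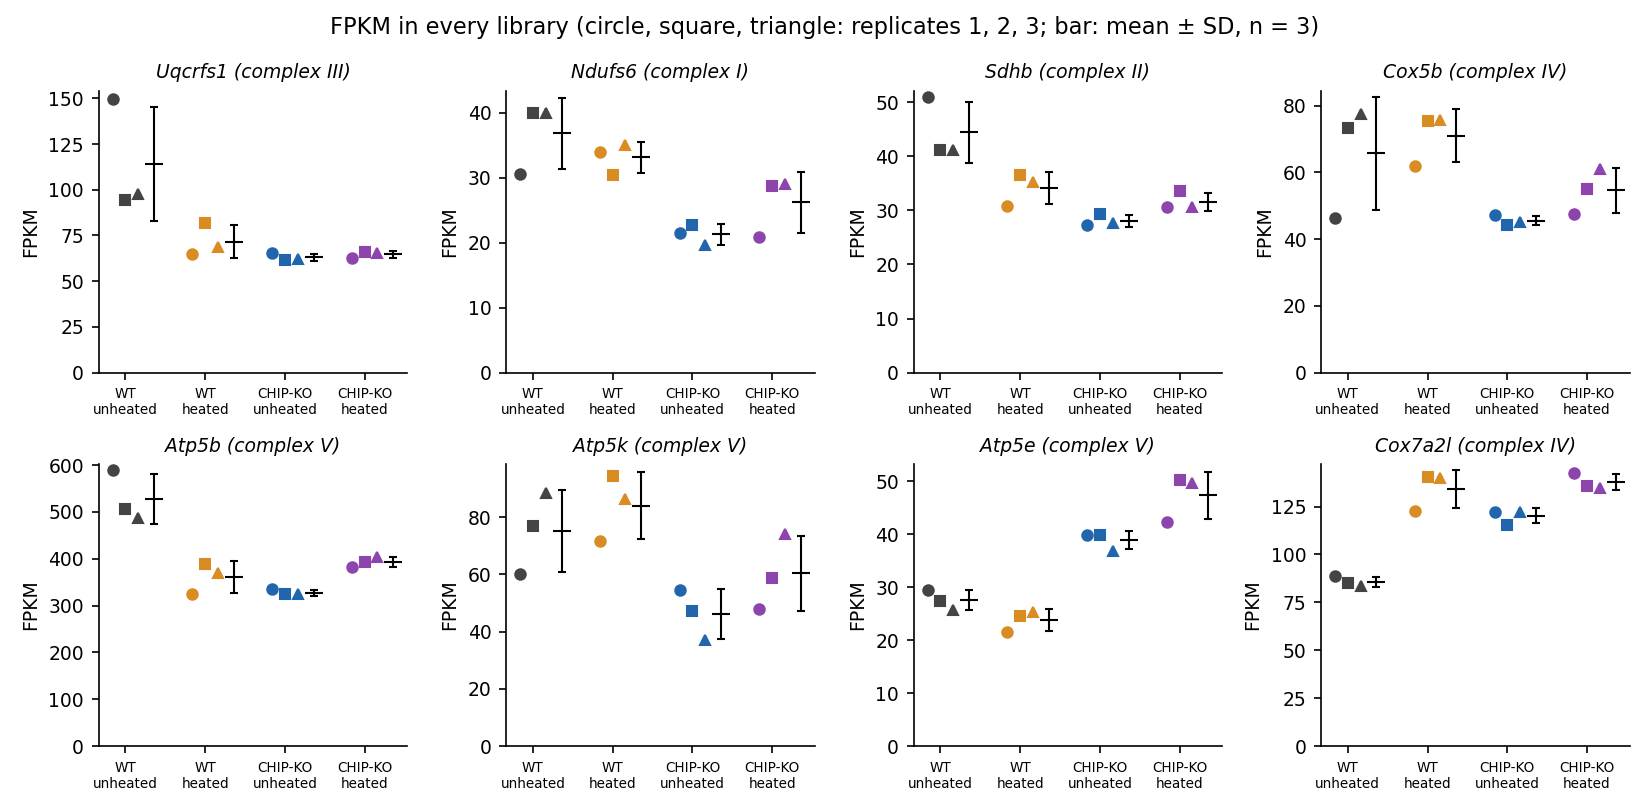
FPKM (vertical axis, from 0) of 8 members in each of the 12 libraries by group, with mean ± SD (n = 3) beside the points. Uqcrfs1, Ndufs6, Sdhb, Atp5b and Atp5k are higher in every unheated wild-type library than in every unheated CHIP-KO library, Atp5e and Cox7a2l are lower, and Cox5b overlaps.

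After heat, CHIP-KO and wild-type cells differed in fewer members. Of 87 members 13 were lower and 8 higher, where 19.1% of all tested genes were lower and 23.3% higher, and the median was -0.08 against 0.01. The count of lower members ranged from 7 to 25 when 1 library was left out, and that of all tested genes from 2069 to 2673. Unheated libraries enter this comparison only through the spread shared by the fit and the gene filter. It was 25 without wild-type heated replicate 1, 20 without wild-type unheated replicate 1, 8 without wild-type heated replicate 2 or 3 or CHIP-KO heated replicate 2, and 7 without CHIP-KO heated replicate 1. It was 37 without both wild-type replicates 1, where 2794 of 12729 tested genes were lower. With chromosome medians removed it was 8, where 2421 of 13023 tested genes were lower. The count of higher members was 5 without CHIP-KO heated replicate 2. No call was made for 12 of the 13 complex IV genes.

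Atp5e stood out among the higher members, at 21.5, 24.5 and 25.3 FPKM in heated wild-type and 42.3, 50.1 and 49.6 in heated CHIP-KO libraries, 1.95-fold higher (0.96 ± 0.08, adjusted p = 4e-06). Its values did not overlap under either treatment, and the difference was larger after heat by 0.48 (the interaction). Ndufaf5, whose product modifies a core subunit of complex I, had 4.75, 5.76 and 4.22 FPKM against 7.57, 7.53 and 6.93 (0.51 ± 0.09, adjusted p = 0.0008). Ndufb6, Ndufb7 and Ndufa9, accessory subunits of complex I, were higher by 0.35, 0.31 and 0.30, with adjusted p of 0.00579 to 0.0138. Ndufa9 lost its call with chromosome medians removed (adjusted p = 0.115), and Ndufb7 with these groups alone and without CHIP-KO heated replicate 2 (adjusted p up to 0.0588).

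Among the lower members, Uqcrh, the hinge protein of complex III, had 83.5, 106.7 and 96.5 FPKM against 60.9, 58.7 and 62.3 (-0.64 ± 0.08, adjusted p = 9.49e-05). It was lower without heat as well (-0.62), and its span overlaps a processed pseudogene, Gm12854 (19.2 FPKM), on the opposite strand. Cox6c was lower by 0.58 on the log2 scale (± 0.09, adjusted p = 0.000237) and Ndufs5, an accessory subunit of complex I, by 0.46 (± 0.08, adjusted p = 0.000824), from 60.3, 78.1 and 69.6 to 50.8, 48.9 and 49.8 FPKM. Uqcr11, a small complex III subunit, and Ndufv3, an accessory subunit at the flavoprotein end of complex I, changed by -0.43 (adjusted p = 0.0202) and -0.32 (adjusted p = 0.0118). Sdha changed by -0.21 (adjusted p = 0.0277), and this call ended under 6 alternatives, as that of Uqcr11 did under 3.

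Genes that work with the complexes but fall outside the symbol patterns were read from lists chosen for their known roles. Their counts are to be read beside the shares over all tested genes, 24.5% lower and 23.9% higher without heat, and 30.5% falling and 28.1% rising with heat in wild type. Of 5 electron carriers and subunits, Cyc1, Cycs and Etfb were lower and Etfdh higher (0.30) in unheated CHIP-KO cells. Cyc1, cytochrome c1 of complex III, had 108.8, 110.1 and 110.8 FPKM in unheated wild-type libraries and 56.7, 57.5 and 58.7 in unheated CHIP-KO libraries (-0.92 ± 0.06, adjusted p = 3.07e-07), and fell with heat in wild type to 58.1, 67.8 and 62.4 (-0.80). Cycs, cytochrome c itself, changed by -0.37 between the unheated genotypes and by -0.77 with heat in wild type, both calls. Without heat, 10 of 20 tested complex IV assembly factors were lower in CHIP-KO cells and 1 higher, as were 3 and 0 of 3 for complex V, 3 and 1 of 8 for complex I outside Ndufaf, 2 and 0 of 5 for complex III and 1 and 0 of 2 for complex II. With heat in wild type, 14 of 20 complex IV assembly factors fell and 3 rose, while the complex IV subunits had 1 fall and 4 rises of 13. Of 77 tested mitochondrial ribosomal protein genes 50 were lower and 3 higher in unheated CHIP-KO cells (median -0.30), and 51 fell and 2 rose with heat in wild type (median -0.28). Of 14 TCA cycle genes 9 were lower and 1 higher without heat.

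Among 15 tested regulators of mitochondrial genes, 4 were lower and 2 higher in unheated CHIP-KO cells, so the share that was lower was near that of all genes. Gabpa changed by -0.30 (adjusted p = 0.00721) and Tfam, which packages and transcribes mitochondrial DNA, by -0.36 (adjusted p = 0.0189), while Nrf1 had 4.23, 5.05 and 4.79 against 4.73, 4.77 and 4.75 FPKM. With heat in wild type 8 of the 15 fell and 2 rose, where 30.5% of all tested genes fell and 28.1% rose. Nrf1, Gabpa and Tfam changed by -0.38, -0.38 and -0.39, all calls. Polg2 went the other way, from 1.30, 1.40 and 1.41 to 3.58, 1.92 and 2.30 FPKM. Unheated wild-type replicate 1 was high in Tfam (27.0 FPKM beside 19.1 and 19.1), and without it the changes of Tfam were -0.20 between unheated genotypes and -0.23 with heat, both still calls. The coactivator genes Ppargc1a and Ppargc1b stayed under 1 FPKM in every library. Pprc1, also on the list, stood at 16.7, 15.0 and 14.4 FPKM in unheated wild-type cells. In unheated CHIP-KO cells it had larger values, 19.1, 20.6 and 19.9 FPKM. The 13 respiratory chain genes of mitochondrial DNA had a median change of 0.20 between unheated genotypes (1 higher, 0 lower) and of 0.62 with heat in wild type (5 rose, 0 fell), where unheated replicate 1 was low, for mt-Co1 1278 FPKM beside 2424 and 2710. Without that library the medians were 0.05 between unheated genotypes (0 higher, and mt-Nd1 lower) and 0.42 with heat (5 rose, 1 fell). After heat their median change between genotypes was -0.40 (2 lower, 0 higher), with 8 lower once that library was left out. That unheated library is in neither heated group. It enters this comparison only through the spread shared by the fit and the gene filter.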

How the data were processed

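RNA was sequenced from 12 libraries of mouse embryonic fibroblasts, in 4 groups of 3, after poly(A) capture with 150-base reads per the labels' protocols. The values are FPKM per gene as the authors deposited them. Per the submitters' processing notes the aligner was HISAT2. Its version, the counter, the strand setting and the annotation were not given in the sources used here. Positions of 88 of the 94 members were identical to those of GENCODE M21 on GRCm38. FPKM steps gave whole fragments for 100% of values (within 0.01), 15591924 to 26954112 per library, which were used for depth and for voom as an alternative.

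Values were tested as log2(FPKM + 1) with limma 3.58.1 (R 4.3.3) with a mean-variance trend, in 1 fit over all 12 libraries with a mean for each group, and p-values were adjusted by Benjamini-Hochberg over 13023 genes with FPKM of at least 1 in at least 3 libraries. An exact permutation test of 3 against 3 libraries cannot go below p = 0.10. The fit was tested on simulated data drawn with the same spread in every library. Those data held no outlying libraries, so that test does not measure the error of the calls here. Python 3.11.15 with pandas 2.3.3 and matplotlib 3.10.9 made the summaries and plots. Promoter sequences are from RefSeq.

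Members, gene lists and tests were chosen with earlier results of these data known. Named members are the 5 largest rises and falls of each comparison past the threshold, with a mean of at least 2 FPKM in the higher group and no overlap between groups (the overlap was not asked of the interaction), the largest change of each complex, and isoform sets. One result that the rule would also name is not reported here. Others named beside a group count were chosen after their values were seen. Alternatives covered the pseudocount, filters, scaling, library weights, the replicate block, gene length, voom, each library left out and both wild-type replicates 1 left out. Removal of chromosome medians, and list values without wild-type replicates 1, were added after seeing the data.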

Additional observations from a re-analysis of the deposited data

Results flagged for a closer look

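For 9 named members the change with heat differed between the genotypes by limma's interaction term, given here as the log2 change in CHIP-KO minus that in wild-type cells. Atp5b differed by 0.81, Uqcrq by 0.71, Ndufb6 by 0.68, Uqcrfs1 by 0.68, Atp5g1 by 0.63, Ndufaf4 by 0.59 and Sdhb by 0.53, each with a fall in wild-type cells. Cox7a2l differed by -0.44 and Cox6c by -0.34, each with a rise in wild-type cells. The differences of Cox6c, Ndufaf4 and Uqcrfs1 lost their call under 14, 12 and 8 alternatives.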

How the results depend on the processing

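Of 47 named changes under 1281 alternative values, 1163 kept direction and call, 113 lost the call and 5 turned. Lower members without heat numbered 40 to 62. With heat in wild type, risers numbered 3 at an equal FPKM sum, 4 with these groups alone and 17 with library weights or without both wild-type replicates 1. There, an equal sum gave 58 fallers and a median of -0.37, and leaving out both replicates 1 a median of -0.040. Leaving out 1 library gave 5 to 13 risers and medians of -0.18 to -0.059. With heat in CHIP-KO, risers numbered 3 with no filter, 1 with quantile normalization, equal sum, voom or the replicate block within genotype, 4 with the length trend and the block, 25 with these groups alone, 40 with weights, 26 without both replicates 1, and 0 to 14 with 1 library left out. Of all tested genes, 1706 of 12140 rose with these groups alone, 2926 of 13023 with weights and 1954 of 12729 without both replicates 1. Among the members, fallers were 46 at an equal sum and 2 with weights or the length trend, with or without the block. The median was -0.23 at an equal sum and 0.017 with voom. At an equal sum Ndufb6 turned to -0.056, Atp5e to -0.058, Atp5b to -0.077 and Atp5d to -0.10, and Atp5b was -0.059 under quantile normalization. After heat, members higher in CHIP-KO numbered 5 with these groups alone, 17 with weights and 5 to 12 with 1 library left out. Lower members numbered 21 with quantile normalization, 22 at an equal sum or with voom, 43 with weights, 37 without both replicates 1, 8 without chromosome medians and 7 to 25 with 1 library left out. Of all tested genes, 3976 of 13023 were lower after heat with weights and 2794 of 12729 without both replicates 1. Higher interactions of members were 45 with weights. Lower ones were 1 with no filter, either block or chromosome medians removed, 6 with weights, 4 without both replicates 1 and 1 to 3 with 1 library left out. The interaction median was 0.155 at an equal sum, 0.18 with the length trend, with or without the block, and 0.18 without both replicates 1. The cause was not tested, and the fit of the library weights stopped before full convergence.

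Same-numbered replicates were not treated as paired in the main fit. Correlations of their deviations over all genes were -0.12 to 0.33. Between heated wild-type and heated CHIP-KO libraries they were 0.33, 0.02 and 0.23, where pairs of unlike number had -0.32 to 0.13. Whether same-numbered libraries were handled together was not tested. With the replicate block 52 members were lower without heat. At an equal sum 2388 of all genes rose and 6168 fell with heat in wild type, and 567 rose and 8158 fell in CHIP-KO. Low members such as Cox8b had too few fragments for a test.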
